A study of Homo sapiens with 6 samples.

Results

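Transcripts of the machinery that carries secretory proteins from the endoplasmic reticulum (ER) to the Golgi apparatus were examined in the human neuroblastoma line SH-SY5Y, which serves as an in vitro stand-in for neurons, after 4 h of exposure to unconjugated bilirubin. Members were all probe sets with a single gene symbol of the SEC (SEC11 to SEC63), SSR, SRP, TMED, KDELR or TRAPPC families, together with COPA, COPB1, COPB2, COPE, COPG1, COPZ1, ARCN1, SAR1A, SAR1B and SCFD1. They comprised 103 of 22215 probe sets and 63 of 11963 genes. Both groups consisted of 3 arrays (Affymetrix GeneChip), each from a separate flask. The treated group received free bilirubin (Bf) at 140 nM in DMSO, and the control group received DMSO 0.6%, the solvent, so that both were exposed to DMSO for the same 4 h. The other exposure times of the study, 1 h and 24 h, were not analysed here.

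Secretory proteins enter the ER while they are made: the signal recognition particle (SRP) brings the ribosome to the membrane, the SEC61 channel admits the chain, and signal peptidase removes the signal peptide. Vesicles with a COPII coat then bud from the ER, and vesicles with a COPI coat return escaped ER proteins and receptors from the Golgi. TMED and KDELR proteins select cargo, and the TRAPP complexes and SNARE proteins let vesicles dock and fuse. Several of these genes are known targets of XBP1 and ATF6, transcription factors of the unfolded protein response, which cells mount when misfolded proteins accumulate in the ER.

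The promoters of the members were searched for the motifs of these factors, because this property was not used to choose the genes. The RefSeq table of promoters (GRCh38.p14, from 250 bases before to 50 bases after the gene start) held 57 of the 63 members, without SEC14L1P1, SEC24D, TMED9, TRAPPC14, TRAPPC8 and TRAPPC9. The unfolded protein response element (UPRE), searched as TGACGTGG on both strands, was present in 10 of 57 member promoters (17.5%). The same letters were present in 256 of 35116 promoters in the table (0.729%) and in 95 of 9563 promoters of genes on the array (0.993%). The ER stress element (ERSE) was searched as CCAAT and CCACG separated by any 9 bases. It was found in 0 of 57 member promoters, in 0.0769% of all promoters and in 0.125% of those of genes on the array. ERSE-II, searched as ATTGG and CCACG separated by 1 base, was found in 0 of 57, in 0.0541% and in 0.115%. At such low shares 57 promoters would rarely hold a match, so these counts of 0 do not set the members apart. These motifs share the letters CCACG, read on the opposite strand within the UPRE. A match describes the letters only and is neither a binding site nor a cause. The surroundings of the 11 matches are printed here, read 5′ to 3′ on the strand on which the motif reads TGACGTGG, which is in capitals.
COPA, chr1:160343227-160343256, minus strand: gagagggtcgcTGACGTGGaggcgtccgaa
COPB1, chr11:14499841-14499870, plus strand: gagtccttggcTGACGTGGaagggggtggg
COPB2, chr3:139389825-139389854, plus strand: actaagggccgTGACGTGGtgccgctgagc
COPB2, chr3:139389632-139389661, plus strand: gtcagactgacTGACGTGGaacttccggga
KDELR3, chr22:38468039-38468068, minus strand: tggccgggcggTGACGTGGccagggcggcc
SCFD1, chr14:30622273-30622302, minus strand: gagcggggggaTGACGTGGctgcccttacc
SEC16A, chr9:136484707-136484736, plus strand: ttcagtccggcTGACGTGGcaccagggcca
SEC23A, chr14:39103221-39103250, minus strand: tcccctcctctTGACGTGGcagaggcggcg
SEC24A, chr5:134648595-134648624, plus strand: gtgagagtcggTGACGTGGcggcgaggccg
SEC62, chr3:169966779-169966808, minus strand: ccggttccctcTGACGTGGagcgaggaggg
SRP19, chr5:112861164-112861193, minus strand: tctctagtctcTGACGTGGcatgaagactt

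Matches were present in 3 of 7 COPI genes (COPA, COPB1 and COPB2, all subunits of the coat), in 3 of 12 COPII genes (SEC16A, which organises ER exit sites, and the coat subunits SEC23A and SEC24A) and in SRP19, SEC62, KDELR3 and SCFD1. Of the 11 matches, 7 began before the gene start and 4 after it. COPB2 was the member with 2 matches, at positions -163 and 31 from its start. Its promoter is shown whole, on the strand of the gene and with the matches in capitals, beside that of KDELR3, a receptor that retrieves ER proteins and whose match began at position -46.
COPB2, chr3:139389631-139389930, minus strand: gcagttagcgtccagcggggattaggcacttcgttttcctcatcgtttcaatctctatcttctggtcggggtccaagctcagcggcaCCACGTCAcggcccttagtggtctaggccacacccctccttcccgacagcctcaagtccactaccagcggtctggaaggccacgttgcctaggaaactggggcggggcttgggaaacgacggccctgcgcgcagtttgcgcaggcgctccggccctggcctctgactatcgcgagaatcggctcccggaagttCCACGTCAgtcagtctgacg
KDELR3, chr22:38467846-38468145, plus strand: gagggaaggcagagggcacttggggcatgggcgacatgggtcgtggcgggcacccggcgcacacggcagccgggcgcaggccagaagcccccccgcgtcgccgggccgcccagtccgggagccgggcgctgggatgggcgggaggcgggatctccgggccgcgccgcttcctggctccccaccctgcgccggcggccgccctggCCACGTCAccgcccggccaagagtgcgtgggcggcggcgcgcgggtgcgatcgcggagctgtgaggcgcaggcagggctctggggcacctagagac

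**Figure D1:**
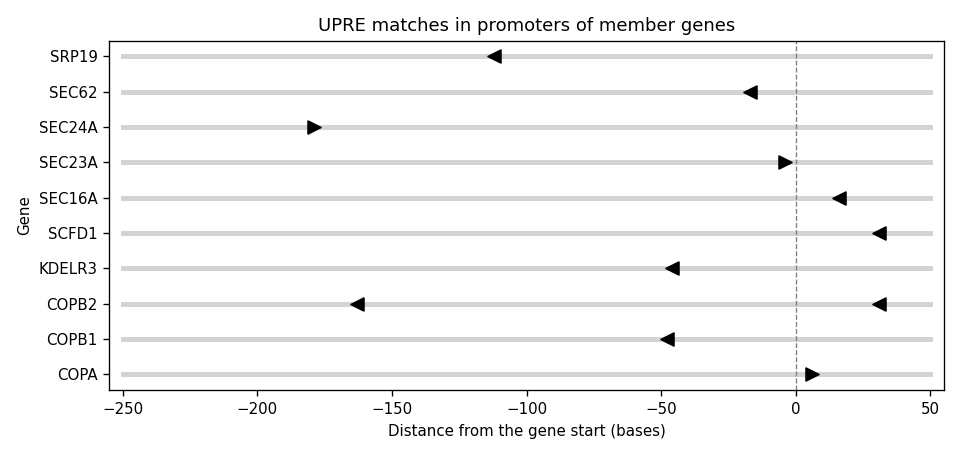
Position of each UPRE match (TGACGTGG on either strand) relative to the gene start, in bases; grey bars are the promoter windows, and a triangle pointing right or left marks a match on the gene strand or on the opposite strand. The 11 matches lie in 10 genes, 8 of them on the strand opposite to the gene.

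The cell type was checked on 10 measured noradrenergic markers, of which 8 were at or above the level of the median probe set (7.97 on the log2 scale). DBH had a mean of 12.79 and GATA3 of 13.23, while TH (6.57) and HAND2 (7.76) lay below it. The summed level of these markers was 110.9 to 114.4 in the Bf arrays and 111.9 to 113.8 in the DMSO arrays. Of 10 mesenchymal or Schwann-like markers, 6 were at or above the median probe set: VIM (13.76), TWIST1 (12.38), COL3A1 (10.26), FN1 (10.11), COL1A1 (8.68) and LUM (8.58). SOX10, S100B, PRRX1 and COL1A2 lay below it. The summed level of this list was 91.9 to 93.5 in the Bf arrays and 92.1 to 94.4 in the DMSO arrays. DMSO replicate 3 stood apart in RNA quality: its beta-actin 3' probe set exceeded the 5' one by 2.21, against 0.10 to 0.89 on the other arrays, and its GAPDH difference was 1.30, against 0.10 to 0.38. Bf replicate 2 had the narrowest spread of values, with an interquartile range of 2.25, against 2.33 to 2.66 on the others. The part of these properties in the results was not tested. In such bulk samples, fewer cells of a type and less RNA per cell cannot be told apart.

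Within this machinery no gene passed the test. With limma, 0 of 103 member probe sets passed the threshold of 0.10, with an adjusted p of 1.00 for each, and the share over the whole array was 0%. At an unadjusted p under 0.05 there were 0 members and 17 of 22215 probe sets (0.0765%). With the replicate number as a block in limma there were 0 members and 92 probe sets (0.414%). Both shares lay far below the level of 0.05 itself, so the test was conservative here. The 0 calls therefore do not show that no gene changed. The arrays of both groups did not overlap in 1 member probe set that was higher under Bf (0.971%), against 1.68% of all probe sets, and in 0 that were lower, against 0.981%. The differences, Bf 140 nM minus DMSO 0.6% on the log2 scale, ranged from -0.18 to 0.23 over the 63 genes, each represented by the probe set with the highest mean. Their median was 0.04 with 40 of 63 above 0 (63.5%), and the median over all genes was 0.03 with 63.7% above 0. The 95% interval of the difference left out a change of 2-fold in either direction in 60 of 63 genes (95.2%), against 98.9% of all genes. It left out a change of 1.5-fold in 44, against 10540 of all 11963 genes and 5546 of 6848 at or above the median probe set. These intervals are from the unpaired fit, whose error includes the spread between replicate numbers. The SE of SEC62, KDELR1 and TRAPPC8 was 0.55, 0.45 and 0.45, and 0.15, 0.14 and 0.13 with the replicate number as a block. Without DMSO replicate 3, the median over the members was 0.02, and those of the groups were -0.01 for SRP, 0.02 for the translocon, -0.03 for COPII, -0.06 for COPI, 0.05 for the cargo receptors, 0.10 for tethering and fusion and 0.12 for the SEC14-like genes. The sign of the difference changed in 29 of 63 genes when this array was left out, with 0 members called.

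**Figure D2:**
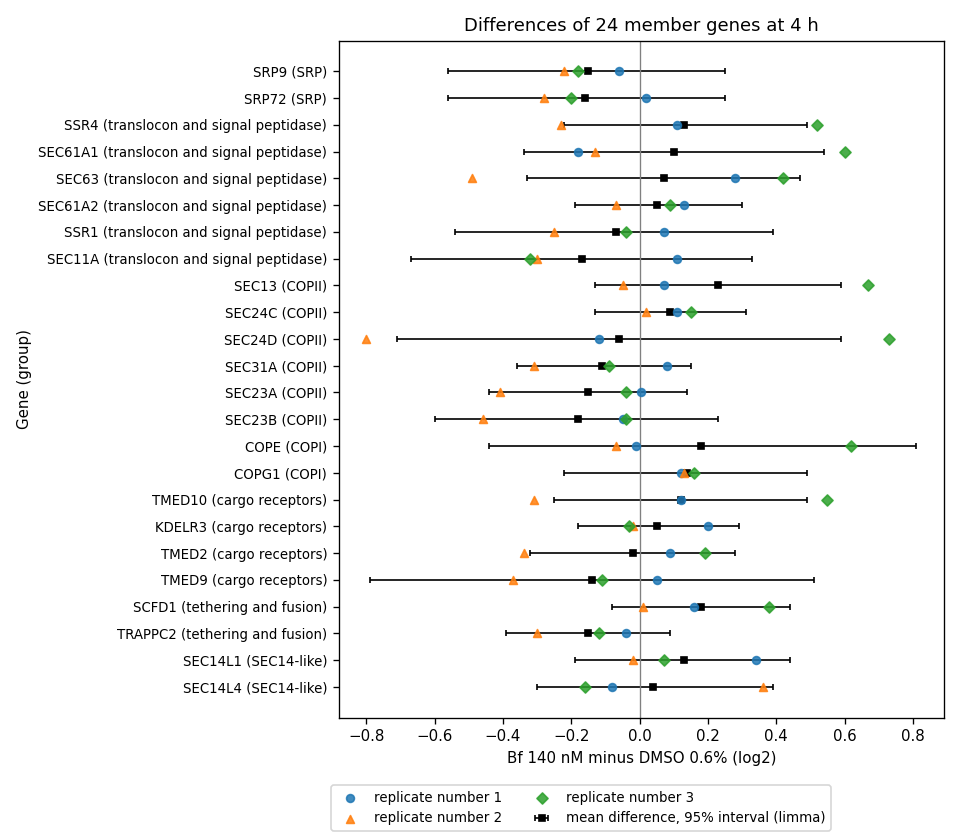
Difference between Bf 140 nM and DMSO 0.6% (log2) for 24 member genes: black squares and bars give the limma difference and its 95% interval, and coloured points the difference within each replicate number. Every interval includes 0, and the points of 1 gene often lie on both sides of it, as for SEC24D, from -0.80 to 0.73.

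The SRP genes had the lowest group median, -0.12, with 1 of 5 genes above 0 and 0 called. SRP9 and SRP14, which form the part of the particle that slows translation, had values within a narrow range. SRP14 had levels of 13.16, 13.26 and 13.35 in the Bf arrays and 13.18, 13.28 and 13.68 in the DMSO arrays (difference -0.12, SE 0.15). SRP9 measured 13.11, 13.07 and 13.50 under Bf and 13.17, 13.29 and 13.68 under DMSO (difference -0.15, SE 0.17). In both genes DMSO replicate 3 was the highest array and the groups overlapped. SRP72, a protein that binds the SRP RNA, measured 11.86, 11.64 and 12.12 under Bf and 11.84, 11.92 and 12.33 under DMSO (difference -0.16, SE 0.17). DMSO replicate 3 was again the highest, and the 6 probe sets of this gene did not share a sign. SRP54, which binds the signal peptide, had 0.13 (SE 0.16) and was the gene above 0. SRP9 and SRP14 have near-identical pseudogenes, so that their probes may also read related transcripts. Without DMSO replicate 3 the differences of SRP9 and SRP14 were -0.01 and 0.03.

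The translocon and signal peptidase genes had a median difference of 0.05 with 6 of 10 above 0 and 0 called. SEC61A1, the channel-forming subunit, measured 10.91, 10.85 and 10.97 under Bf and 11.09, 10.97 and 10.37 under DMSO (difference 0.10, SE 0.19). All Bf arrays were above DMSO replicate 3, and DMSO replicate 1 was the highest of the 6. Without DMSO replicate 3 the difference was -0.12. Its paralogue SEC61A2 measured 8.91, 8.69 and 8.74 under Bf and 8.78, 8.76 and 8.64 under DMSO (difference 0.05, SE 0.10), and SEC61B, a small subunit of the channel, had -0.01 (SE 0.15). SSR4, a subunit of the translocon-associated TRAP complex, measured 12.21, 11.87 and 12.40 under Bf and 12.10, 12.10 and 11.88 under DMSO (difference 0.13, SE 0.15), with the lowest Bf array below all 3 DMSO arrays. SSR1, another TRAP subunit, measured 10.99, 10.80 and 11.42 under Bf and 10.92, 11.05 and 11.46 under DMSO (difference -0.07, SE 0.20). Here both arrays of replicate number 3 were the highest, and SSR2 and SSR3, the remaining subunits, had 0.05 and 0.04. SEC11A, a catalytic subunit of signal peptidase, measured 12.70, 12.40 and 12.95 under Bf and 12.59, 12.70 and 13.27 under DMSO (difference -0.17, SE 0.21). SEC63, which helps chains through the channel, measured 10.51, 10.08 and 10.56 under Bf and 10.24, 10.57 and 10.14 under DMSO (difference 0.07, SE 0.17). The groups overlapped in both genes. SEC62, a partner of SEC63, had the widest interval of the group. It measured 11.08, 11.12 and 12.36 under Bf and 10.67, 11.32 and 12.73 under DMSO (difference -0.05, SE 0.55). Both arrays with replicate number 3 were above the 4 others, so that its spread lay between replicate numbers rather than between treatments.

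The COPII genes had a median difference of -0.04 with 6 of 13 above 0. The sign depended on the choice of probe set: with the median over the probe sets of a gene it was 0.09. SEC24C, a cargo-binding subunit of the coat, was the member whose groups did not overlap. It measured 9.85, 9.75 and 9.77 under Bf and 9.74, 9.73 and 9.63 under DMSO. The lowest Bf array exceeded the highest DMSO array by a margin smaller than the spread within either group, the fold was 1.07 (95% interval 0.917 to 1.24), and the limma adjusted p was 1.00. SEC24D, its paralogue, had 9.29, 9.08 and 9.43 under Bf and 9.41, 9.88 and 8.70 under DMSO (difference -0.06, SE 0.28). The DMSO arrays held both its highest and its lowest value, and without DMSO replicate 3 the difference was -0.38. Other probe sets of SEC24D had differences of 0.0049 and 0.23. SEC24A and SEC24B had differences of 0.13 (SE 0.18) and 0.12 (SE 0.19).

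SEC13, which forms the outer cage of the coat with SEC31A, had the highest difference of all members. It measured 11.50, 11.43 and 11.64 under Bf and 11.42, 11.48 and 10.97 under DMSO (difference 0.23, SE 0.15, fold 1.17, 95% interval 0.916 to 1.51). The groups overlapped, and without the low DMSO replicate 3 the difference was 0.07. SEC31A measured 11.47, 11.18 and 11.38 under Bf and 11.38, 11.49 and 11.47 under DMSO (difference -0.11, SE 0.11), and its groups overlapped. The other probe set of SEC31A had a difference of 0.09. SEC23B, an inner coat subunit, had the lowest difference of all members and measured 10.27, 10.14 and 10.70 under Bf and 10.32, 10.60 and 10.74 under DMSO (difference -0.18, SE 0.18). Its other 2 probe sets had differences of 0.28 and 0.14, so the sign depended on the probe set. SEC23A, the paralogue of SEC23B, measured 9.19, 9.18 and 9.30 under Bf and 9.19, 9.59 and 9.34 under DMSO (difference -0.15, SE 0.13), with DMSO replicate 2 the highest. SAR1A and SAR1B, the GTPases that start coat assembly, had -0.14 and -0.12, and SEC16A had 0.15 (SE 0.22).

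The COPI genes had a median difference of 0.05 with 6 of 7 above 0 and 0 called. COPG1, the gamma subunit, had a positive difference in each replicate number, 0.12, 0.13 and 0.16. It measured 8.92, 8.53 and 8.66 under Bf and 8.81, 8.40 and 8.50 under DMSO (difference 0.14, SE 0.15; SE with the replicate number as a block 0.11, limma adjusted p 1.00). The arrays differed more between replicate numbers than between treatments, and the groups overlapped. COPE, the epsilon subunit, measured 11.23, 11.25 and 10.92 under Bf and 11.24, 11.31 and 10.30 under DMSO (difference 0.18, SE 0.27), and both arrays with replicate number 3 were the lowest. ARCN1, the delta subunit, had 0.13 (SE 0.21), COPA, the alpha subunit, 0.01 (SE 0.14), and COPB1 and COPB2, the beta and beta-prime subunits, -0.10 and 0.05. Without DMSO replicate 3, COPE had -0.14, ARCN1 -0.14 and COPG1 0.10.

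The cargo receptors had a median difference of 0.03 with 6 of 8 above 0 and 0 called. TMED2, TMED9 and TMED10 belong to the p24 family, which sorts cargo into both kinds of vesicle. TMED2 had a difference of -0.02 (SE 0.13). TMED9 measured 11.40, 11.19 and 12.05 under Bf and 11.34, 11.56 and 12.16 under DMSO (difference -0.14, SE 0.28), and both arrays of replicate number 3 were the highest. TMED10 measured 11.82, 11.51 and 12.00 under Bf and 11.70, 11.82 and 11.45 under DMSO (difference 0.12, SE 0.16), without such a separation. TMED1, TMED3 and TMED5 each had 0.03. KDELR1 and KDELR3 bind the KDEL tail of escaped ER proteins and return them. KDELR1 measured 9.52, 9.37 and 8.52 under Bf and 9.56, 9.30 and 7.91 under DMSO (difference 0.21, SE 0.45), with both arrays of replicate number 3 below the rest, and without DMSO replicate 3 the difference was -0.29. KDELR3 measured 8.26, 8.25 and 8.19 under Bf and 8.05, 8.27 and 8.22 under DMSO (difference 0.05, SE 0.10), and these groups overlapped within a narrow range.

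The tethering and fusion genes had a median difference of 0.06 with 12 of 15 above 0. SCFD1, which assists the SNARE proteins of ER to Golgi vesicles, had the lowest unadjusted p of all members. It measured 10.54, 10.59 and 10.67 under Bf and 10.38, 10.58 and 10.29 under DMSO (difference 0.18, SE 0.11, fold 1.13, 95% interval 0.949 to 1.36, limma unadjusted p = 0.141 and adjusted p = 1.00). The Bf arrays overlapped with DMSO replicate 2, and without DMSO replicate 3 the difference was 0.12. TRAPPC2, a subunit of the TRAPP complexes, measured 9.08, 8.93 and 8.92 under Bf and 9.11, 9.23 and 9.04 under DMSO (difference -0.15, SE 0.10). It was lower under Bf in each replicate number, with differences of -0.04, -0.30 and -0.12, and its groups overlapped. TRAPPC12 and TRAPPC14 were higher in each replicate number, with differences of 0.13 (SE 0.11) and 0.17 (SE 0.16). SEC22B, a SNARE protein of these vesicles, had -0.003 (SE 0.34), with 0.61 within replicate number 1 and -0.60 within replicate number 3. The remaining TRAPPC genes ranged from -0.03 for TRAPPC3 to 0.19 for TRAPPC6A.

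The SEC14-like genes entered through their symbols and belong to a family of lipid-binding proteins outside the transport machinery. Among them, SEC14L1P1 is a pseudogene by its symbol. The median of the group was 0.04 with 3 of 5 above 0, and 4 of the 5 were below the level of the median probe set. SEC14L1 measured 10.97, 11.04 and 11.06 under Bf and 10.63, 11.07 and 10.99 under DMSO (difference 0.13, SE 0.13). SEC14L4 measured 6.81, 7.26 and 6.73 under Bf and 6.89 on all 3 DMSO arrays (difference 0.04, SE 0.15), with Bf arrays on both sides of that level. Leaving this group out, the median over the remaining 58 members was also 0.04.

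The replicate numbers, taken here to pair the arrays, gave different pictures. The median over the member genes was 0.08 within replicate number 1, -0.19 within replicate number 2 and 0.14 within replicate number 3, with 44, 13 and 43 of 63 genes above 0. In replicate number 2 the translocon genes had 0 of 10 above 0 (median -0.24), the SRP genes 0 of 5 (-0.21), the COPII genes 2 of 13 (-0.28) and the COPI genes 1 of 7 (-0.11). In replicate number 3 the medians were 0.20 for the translocon, 0.15 for COPII, 0.22 for COPI and -0.20 for SRP. The medians of the replicate numbers thus had opposite signs, and each was larger in size than the overall median of 0.04. Genes at or above the median probe set showed the same order, with medians of 0.06, -0.13 and 0.20, and over all genes the medians were 0.03, -0.02 and 0.06. Signs of plus, minus and plus were found in 26 of 63 members (41.3%), in 29.9% of all genes and in 46.5% of the genes at or above the median probe set. After quantile normalization the member medians were 0.0017, -0.02 and -0.09, so that the sign within replicate number 3 changed with the scaling. In that setting the translocon had 3 of 10 above 0 in replicate number 2, with a median of -0.03. The difference had the same sign in all 3 replicate numbers in 9 genes, above 0 in COPG1, SEC24C, SCFD1, TRAPPC12 and TRAPPC14 and below 0 in SRP9, SRP14, SEC23B and TRAPPC2. These shares, 7.94% above and 6.35% below, stood beside 8.56% and 4.39% of all genes.

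**Figure D3:**
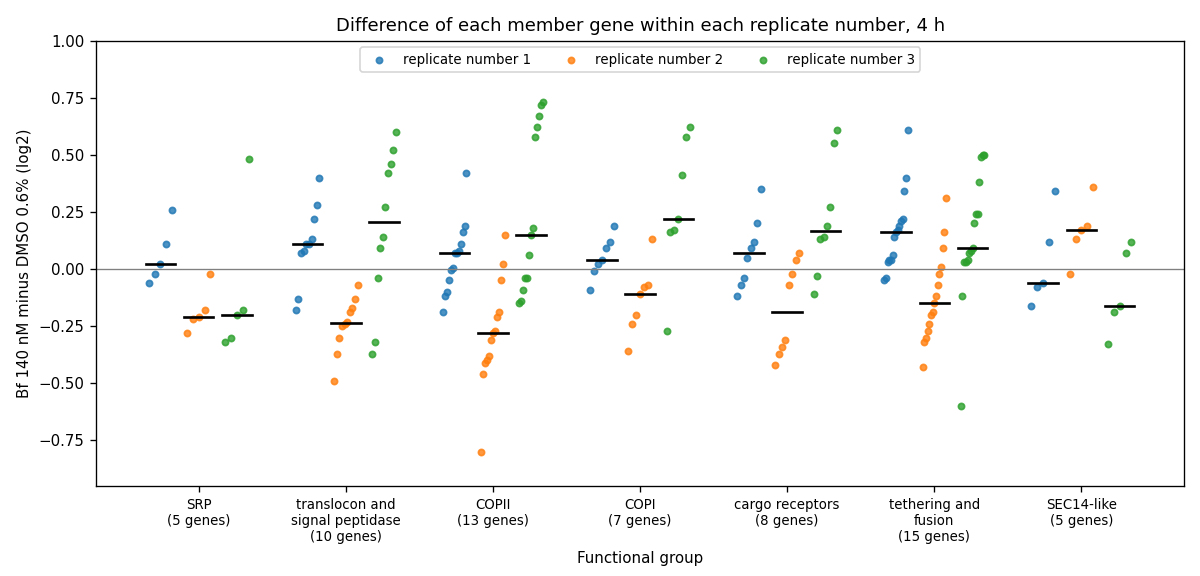
Difference of each member gene between Bf 140 nM and DMSO 0.6% (log2) within each replicate number, by functional group; points are genes and black lines group medians. In replicate number 2 all 10 translocon genes lie below 0, while in replicate number 3 their median is 0.20.

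By array, the translocon genes lay 0.20 above their own mean over the 6 arrays in Bf replicate 3, and their median deviation was -0.27 in Bf replicate 2 and -0.16 in DMSO replicate 3. The COPII genes had -0.22 in Bf replicate 2 and 0.21 in Bf replicate 3. The SRP genes differed from both in DMSO replicate 3, where their median deviation was 0.37. The genes at or above the median probe set had -0.11 in Bf replicate 2, 0.12 in Bf replicate 3 and -0.08 in DMSO replicate 3. The arrays of the same treatment were therefore not alike for these groups.

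**Figure D4:**
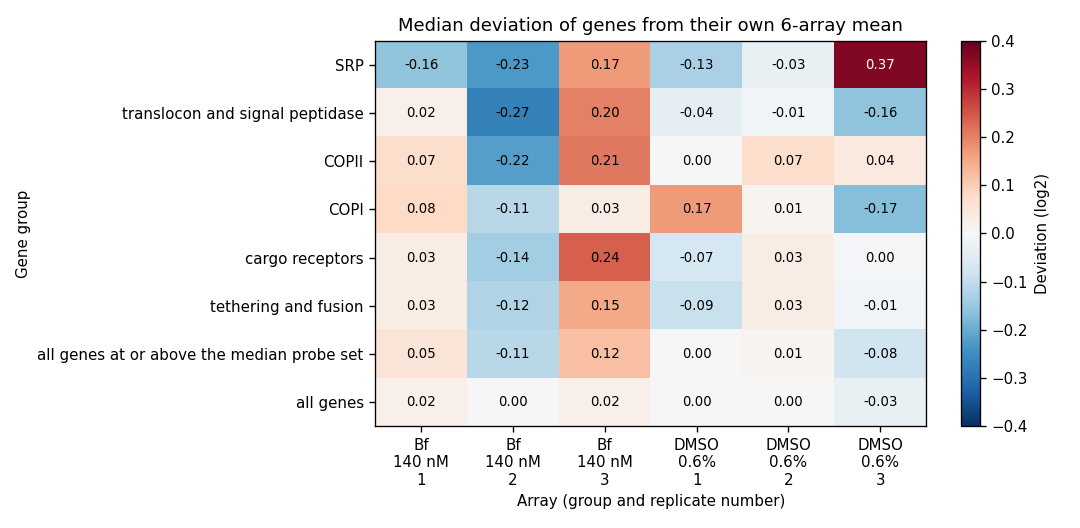
Median deviation (log2) of the genes of each group from their own mean over the 6 arrays, by array. Bf replicate 2 is low and Bf replicate 3 is high in the translocon, COPII, cargo receptor and tethering groups, and DMSO replicate 3 is high (0.37) in the SRP group.

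Several probe sets of the same gene were available for 24 members. All probe sets of the gene shared the sign of the difference in 8 of 24 members (33.3%), against 2039 of 4310 genes over the array (47.3%). The range between probe sets of 1 gene had a median of 0.15 within replicate number 1, 0.21 within replicate number 2 and 0.39 within replicate number 3, against 0.16, 0.18 and 0.26 over the array. It was widest within replicate number 3 in 17 of 24 members (70.8%), against 53.3%. The genes over the array were not matched to the members for signal level or for the number of probe sets. The part of either in these contrasts was not tested. TMED2 illustrates the disagreement between probe sets: its brightest one gave -0.02, with 11.92, 11.69 and 12.08 under Bf and 11.83, 12.03 and 11.89 under DMSO. Another gave 0.37 (SE 0.55), with 11.07, 10.52 and 10.09 under Bf and 10.76, 10.98 and 8.83 under DMSO. Both arrays of replicate number 3 were the lowest on the latter, and not on the former. For COPA, a further probe set measured 9.50, 9.23 and 8.42 under Bf and 9.33, 9.77 and 7.34 under DMSO, again with replicate number 3 lowest in both groups. Over all member probe sets, both arrays of replicate number 3 were together the highest 2 or the lowest 2 of the 6 in 40 of 103 (38.8%), against 34.6% over the array. The fraction was 16.5% for replicate number 1 (15.4% over the array) and 11.7% for replicate number 2 (20.3%). In both groups, replicate number 3 had the largest excess of 3' over 5' signal for beta-actin, 0.89 under Bf and 2.21 under DMSO, and its part in this was not tested.

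**Figure D5:**
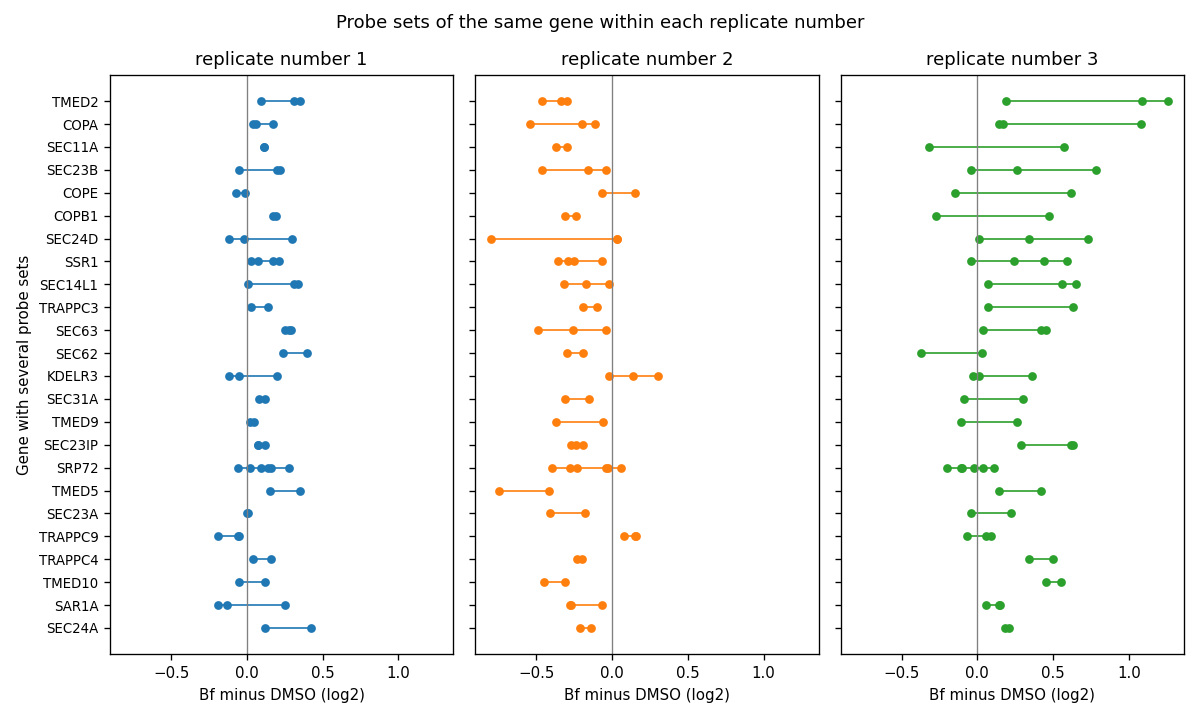
Difference between Bf 140 nM and DMSO 0.6% (log2) of each probe set of the 24 members with several, within each replicate number; points of 1 gene are joined by a line. The lines are longest in replicate number 3, with a median range of 0.39 and a range of 1.07 in TMED2.

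The 13 members that the study lists from its 24-h arrays (SEC24D, SEC23B, SEC61A1, KDELR3, SSR1, SEC31A, TMED9, SEC63, SCFD1, TMED2, SEC61A2, TMED10 and SEC13) had a median of 0.05 at 4 h, with 7 of 13 above 0 and 0 called. Within the replicate numbers the medians were 0.08, -0.31 and 0.19, and 1 of 13 was above 0 in replicate number 2. With the 16 probe sets that the study printed, the median was 0.06 with 11 of 16 above 0. For all 13 genes the 95% interval at 4 h left out a change of 2-fold, as in 98.9% of all genes. In 9 of 13 it left out a change of 1.5-fold, against 10540 of 11963 over all genes. Most fold changes that the study printed for these genes at 24 h were below 2. These counts rest on the probe set with the highest mean. Another probe set of TMED2 had an interval of -0.93 to 1.67 on the log2 scale. The members with a UPRE match had a median of 0.03 (6 of 10 above 0), and those with a promoter and no match had 0.04 (30 of 47 above 0).

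Other genes of the route were taken from a list, mainly of SRP receptor, translocon-associated, signal peptidase, cargo receptor, tether, SNARE and GTPase genes. Of the listed genes, 50 were measured. Of these 50, 0 passed the limma test in either direction. The median was 0.07 with 39 of 50 above 0 (78.0%), and the range was -0.25 to 0.31. Of all genes 63.7% were above 0, and of those at or above the median probe set 69.4%. SRPRA, a subunit of the SRP receptor, had 0.25 (SE 0.17), PREB, which activates SAR1, 0.11 (SE 0.11), and LMAN1, a receptor for glycoproteins, 0.04 (SE 0.33). PREB is also in the 24-h tables of the study, as are TRAM1, SERP1, MCFD2 and BET1. At 4 h the latter had 0.03, -0.06, 0.13 and 0.02. Over the 50 genes, the medians within the replicate numbers were 0.03, -0.14 and 0.29. This order was seen in the members and in all genes at or above the median probe set (0.06, -0.13 and 0.20), to which 48 of the 50 belong. After quantile normalization the medians of the 50 genes were -0.02, 0.0048 and 0.08. Those of the members were then 0.0017, -0.02 and -0.09, so the shared order depended on the scaling.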

How the data were processed

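The authors extracted RNA from SH-SY5Y cells, hybridised it to Affymetrix GeneChip arrays, computed intensities with GCOS and applied variance-stabilizing normalization (justvsn) in R version 2.5.0, per their processing notes. The values that they deposited follow a generalised log2 scale, which compresses differences of dim probe sets. The sources used here do not give the step that combined probes into probe sets. Of 22277 deposited probe sets, 62 controls were left out. Genes were named through the platform annotation, and 7 probe sets with several symbols including a member symbol were left out. Where a gene had several probe sets, the one with the highest mean stood for it.

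Groups were compared with limma (version 3.58.1, R version 4.3.3), unpaired and two-sided, adjusting over 22215 probe sets by Benjamini-Hochberg, at a threshold of 0.10. SAM, used by the study, was not rerun, since it reassigns arrays to groups. The paper states that replicates were independent biological ones. The deviations of same-numbered arrays from their group means correlated at r = 0.601, 0.228 and 0.573 over probe sets, all above 0.1, so the numbers were taken to pair the arrays. Genes with full statistics were those with non-overlapping groups, the 2 with the lowest unadjusted p in each functional group and those on the 24-h list. Members and lists were chosen with earlier results of these data known. Alternatives were quantile normalization, centring, a filter on the mean, the replicate block, a beta-actin covariate, other probe set rules and each array left out. The fit was tested on simulated data.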

Additional observations from a re-analysis of the deposited data

How the results depend on the processing

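Values in this section are differences, Bf 140 nM minus DMSO 0.6%, on the log2 scale. In the 12 alternatives that refitted the probe sets, and at adjusted p thresholds of 0.05 and 0.20, 0 of the member probe sets passed the limma test; the median over the probe sets of a gene gave differences per gene and no such count. Of 132 comparisons of a count or a list median with its main value, 130 kept it within the margin set by the replicates. The counts were 0 in every setting. For a median, the margin was the standard deviation of its values by replicate number, 0.18 for all members and 0.23 for COPII. It exceeded main medians of 0.04 and -0.04, so a change of sign could count as kept. The COPII median was 0.11 without DMSO 0.6% replicate 2 and counted as kept. The exceptions concerned the SRP group, whose median of -0.12 was -0.28 without Bf 140 nM replicate 3 and -0.25 without DMSO 0.6% replicate 1, and ranged from -0.28 to -0.01 when each array was left out in turn. The median over all member genes ranged from -0.02 to 0.10 over the alternatives, and it was -0.01 after quantile normalization and -0.02 without Bf 140 nM replicate 3. With the replicate number as a block, the median was 0.04, 0 probe sets passed the threshold, and 92 probe sets, 0 of them members, had an unadjusted p under 0.05; the block changed no call. The probe sets printed by the study for its 24-h list, and the medians by replicate number after quantile normalization, were alternatives chosen after the data had been seen.

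Single genes crossed 0 in 123 of 794 values and in 50 of 63 genes, and 29 of these sign changes came without DMSO 0.6% replicate 3. Differences of the opposite sign after quantile normalization were COPA -0.03, COPB2 -0.0012, SEC14L1P1 -0.0046, SEC22A -0.01, SEC61A2 -0.02, SSR3 -0.03, TMED1 -0.03, TMED3 -0.04, TMED5 -0.02, TRAPPC11 -0.04, TRAPPC13 -0.07, TRAPPC8 -0.03 and TRAPPC9 -0.01. With arrays centred on the median they were COPA -0.03, TMED3 -0.01, TMED5 -0.01, TRAPPC13 -0.03 and TRAPPC8 -0.01. With the beta-actin covariate they were ARCN1 -2.2e-05, COPA -0.04, COPB1 0.06, KDELR1 -0.07, SEC14L5 0.05, SEC22B 0.19, SEC61A1 -0.0033, SEC61B 0.03, SEC62 0.28, SRP19 0.11, SSR1 0.02 and SSR3 -0.06. Without _s_at and _x_at probe sets they were COPB1 0.11, SEC23B 0.14, TMED10 -0.02, TMED2 0.38 and TMED9 0.08. With the median over the probe sets of a gene they were COPB1 0.004, SAR1A 0.05, SEC23B 0.22, SEC24D 0.0049, SRP72 0.02, SSR1 0.14, TMED2 0.37, TMED5 -0.02 and TRAPPC3 0.10. For the genes whose sign changed when an array was left out, the lowest and highest values were ARCN1 -0.14 to 0.27, COPA -0.10 to 0.11, COPB1 -0.31 to 0.19, COPB2 -0.06 to 0.16, COPE -0.14 to 0.37, KDELR1 -0.29 to 0.53, KDELR3 -0.01 to 0.10, SAR1A -0.39 to 0.01, SAR1B -0.31 to 0.08, SEC11A -0.30 to 0.04, SEC14L1 -0.01 to 0.21, SEC14L1P1 -0.10 to 0.22, SEC14L3 -0.22 to 0.14, SEC14L4 -0.12 to 0.15, SEC14L5 -0.13 to 0.12, SEC16A -0.05 to 0.32, SEC22A -0.09 to 0.17, SEC22B -0.38 to 0.37, SEC23IP -0.08 to 0.30, SEC24A -0.0013 to 0.29, SEC24B -0.03 to 0.29, SEC24D -0.38 to 0.21, SEC31B -0.15 to 0.04, SEC61A1 -0.12 to 0.24, SEC61A2 -0.01 to 0.10, SEC61B -0.14 to 0.12, SEC62 -0.50 to 0.53, SEC63 -0.02 to 0.22, SRP14 -0.22 to 0.03, SRP19 -0.31 to 0.27, SRP54 -0.03 to 0.28, SSR1 -0.25 to 0.08, SSR2 -0.08 to 0.13, SSR3 -0.22 to 0.25, TMED1 -0.07 to 0.11, TMED2 -0.11 to 0.08, TMED3 -0.09 to 0.10, TMED5 -0.13 to 0.27, TMED9 -0.40 to 0.09, TRAPPC10 -0.02 to 0.23, TRAPPC11 -0.02 to 0.16, TRAPPC13 -0.12 to 0.12, TRAPPC3 -0.07 to 0.02, TRAPPC4 -0.03 to 0.22, TRAPPC6A -0.03 to 0.32, TRAPPC8 -0.38 to 0.41 and TRAPPC9 -0.01 to 0.10. The causes were not tested. With 3 arrays a group, precision was limited.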
